A study of Mus musculus with 27 samples.

Results

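Rcan1, B4galt1, Ms4a6d, Med12l and H1f0 are 5 genes whose RNA was far higher in neutrophils sorted from tumour-bearing mouse lung than in neutrophils from wild-type (WT) lung. They are 5 of the 16024 genes in the deposited expression table, and all 5 were found there. They were chosen by the size of that rise in the FPKM values of the neutrophil libraries Tum6 to Tum8 over WT5 to WT7. Their neutrophil values are therefore described here without a test, and tests were kept for the other cell preparations.

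RNA was sequenced from 27 libraries of C57BL/6 mouse lung in 10 groups. Tumours were grown from HKP1, a cultured mouse lung cancer line injected through the tail vein, and tumour lungs were dated day 20 to day 25; WT lungs carried no tumour. Neutrophils were sorted as CD11b+Ly6G+ cells (3 tumour and 3 WT libraries) and monocytes as CD11b+Ly6C+ cells (2 and 2). Macrophages were CD11c+CD11b+ in tumour lung (3 libraries) but CD11c+CD11b- in WT lung (2 libraries), so for macrophages the gate and the tumour cannot be told apart. Epithelial cells were Epcam+CD11b-CD11c- (3 and 3), a gate that in tumour lung can also hold Epcam+ tumour cells, and the remaining groups were total lung cells that had not been sorted (3 and 3). HKP1 is a single line, and the labels do not say which libraries came from separate mice, so p-values measure the spread between these libraries.

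The 5 genes act in unrelated places in the cell. Calcineurin is a calcium-dependent phosphatase that sends NFAT transcription factors to the nucleus, and the Rcan1 protein binds calcineurin and restrains it. Rcan1 is itself a classic NFAT target through an internal promoter, which makes it a feedback regulator. B4galt1 encodes a Golgi enzyme that adds galactose to N-acetylglucosamine on glycans, the step before sialic acid and fucose are attached to make selectin ligands on leukocytes. Ms4a6d encodes a membrane-spanning protein of the MS4A family and is known from monocytes and macrophages. Med12l encodes a paralogue of Med12, a subunit of the kinase module of Mediator, the complex that links transcription factors to RNA polymerase. H1f0 encodes the replacement linker histone that accumulates in cells that have left the cell cycle.

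The values are FPKM, fragments per length of transcript scaled to the depth of the library, so levels can be set side by side between genes. Changes are differences of log2(FPKM + 1), tumour minus WT. Genes that reached 1 FPKM in 2 or more libraries of a comparison were tested, and a gene was called at an adjusted p under 0.05 (limma, Benjamini-Hochberg over all genes tested). Without fragment counts, values carry no counting interval. Judged from the spacing of the lowest values, the depth of each library ran from 0.62 to 1.57 times that of Tum1, with tumour neutrophils at 1.10 to 1.22 and WT neutrophils at 0.853 to 0.959. The 0.62, for Tum13, is not settled, since 29 genes gave it and 29 gave another ratio. For Tum12 these numbers were 37 and 36. The neutrophil label was met by S100a8, an alarmin, at 9547 to 11010 FPKM in tumour and 21820 to 24370 FPKM in WT neutrophils, and by Csf3r, the receptor for granulocyte colony-stimulating factor, at 966 to 1321 and 1638 to 2059 FPKM. S100a9, Il1r2 and Hdc, which are on the same marker list, were listed at 0 in the 3 WT neutrophil libraries. S100a9 was at 925 to 1110 FPKM in unsorted WT lung, and an exact 0 in this table can be a failed estimate, so these zeros are not read as absence. Of 17 neutrophil markers in the table, 15 were tested in neutrophils. In tumour 4 were called higher and 7 lower, beside 33.3% and 25.8% of all genes tested. The calls of S100a9, Il1r2 and Hdc, among the 4 higher, rest on these zeros, and S100a8 and Csf3r were among the 7 lower. Ly6g was not analysed here.

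The promoters below are shown for matches to the NFAT core and other elements in Rcan1, with B4galt1 beside it. They come from RefSeq (GRCm38.p6), each from 250 bases before to 50 bases after an annotated start, on the minus strand and written 5′ to 3′. In the internal Rcan1 promoter (chr16:92400029-92400328) capitals mark the NFAT core GGAAA, the AP-1 element TGANTCA and the cyclic AMP response element TGACGTCA, on either strand. In the upstream Rcan1 promoter (chr16:92466120-92466419) and the B4galt1 promoter (chr4:40853935-40854234) capitals mark the GC box GGGCGG on either strand.
Rcan1 internal promoter: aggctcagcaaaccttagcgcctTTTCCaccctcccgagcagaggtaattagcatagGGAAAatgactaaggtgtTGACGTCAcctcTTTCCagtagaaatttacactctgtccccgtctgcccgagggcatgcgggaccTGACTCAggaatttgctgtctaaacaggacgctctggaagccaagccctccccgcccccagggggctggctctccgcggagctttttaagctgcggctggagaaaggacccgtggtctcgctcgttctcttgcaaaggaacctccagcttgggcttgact
Rcan1 upstream promoter: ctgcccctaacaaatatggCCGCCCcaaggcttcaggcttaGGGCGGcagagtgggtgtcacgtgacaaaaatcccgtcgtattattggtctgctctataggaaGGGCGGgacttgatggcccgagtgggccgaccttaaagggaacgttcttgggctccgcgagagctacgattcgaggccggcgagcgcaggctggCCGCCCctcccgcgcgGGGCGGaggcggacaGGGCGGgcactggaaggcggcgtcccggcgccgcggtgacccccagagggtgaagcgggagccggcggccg
B4galt1 promoter: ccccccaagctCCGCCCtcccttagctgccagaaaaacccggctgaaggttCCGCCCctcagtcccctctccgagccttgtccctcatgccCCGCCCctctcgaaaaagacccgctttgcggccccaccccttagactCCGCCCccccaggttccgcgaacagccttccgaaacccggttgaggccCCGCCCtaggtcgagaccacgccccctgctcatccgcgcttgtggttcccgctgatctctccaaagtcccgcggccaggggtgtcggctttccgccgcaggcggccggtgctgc

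The internal Rcan1 promoter held 3 NFAT cores, at 227, 193 and 163 bases before the start, a number reached by 9.44% of the 32544 promoters of the same length. It also held an AP-1 element, found in 7.79% of promoters, and a cyclic AMP response element, found in 1.8%; none of these matches overlapped another. The internal promoter held 1 GC box too, 59 bases before the start, which is not capitalised above. The upstream Rcan1 promoter held no NFAT core and 6 GC boxes, and the B4galt1 promoter held 1 NFAT core and 5 GC boxes. Of all promoters 2.73% hold 5 or more GC boxes. Of the other members, the H1f0 promoter held 2 NFAT cores and 1 GC box, and the Med12l promoter held 1 GC box and no NFAT core. No AP-1 element or cyclic AMP response element was found in the windows of B4galt1, Med12l and H1f0. These matches describe letters, not binding. The table has a single row for Rcan1, so transcripts from its promoters cannot be told apart.

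Rcan1 (chr16:92391953-92470867, minus strand) stood at 247, 198 and 226 FPKM in tumour neutrophils, against 7.16, 5.96 and 7.69 FPKM in WT neutrophils. The lowest tumour library was 25.7 times the highest WT library. The means were 224 ± 24.6 and 6.94 ± 0.885 FPKM (SD, n = 3 each), a difference of 4.82 on the log2 scale. WT neutrophils had the lowest Rcan1 of the 10 groups, and tumour neutrophils the highest.

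B4galt1 (chr4:40804602-40854005, minus strand) stood at 104, 120 and 122 FPKM in tumour neutrophils, against 8.23, 7.68 and 7.79 FPKM in WT neutrophils. The groups were far apart and each was tight, with means of 115 ± 9.67 and 7.9 ± 0.293 FPKM (SD, n = 3 each) and a log2 difference of 3.71. As for Rcan1, the tumour neutrophils were the highest and the WT neutrophils the lowest of all groups.

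Ms4a6d (chr19:11586604-11604849, minus strand) was under 1 FPKM in each WT neutrophil library. It stood at 36.4, 44.1 and 47.4 FPKM in tumour neutrophils, against 0.217, 0.497 and 0.526 FPKM in WT neutrophils. The means were 42.6 ± 5.65 and 0.413 ± 0.171 FPKM (SD, n = 3 each), a ratio of 103 and a log2 difference of 4.95. Because the WT level lies under the added 1 FPKM, that difference depends on the constant: it was 6.43 with 0.1 FPKM added and 3.13 with 5 FPKM added.

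Med12l (chr3:59005825-59318682, plus strand) was the lowest of the 5 in tumour neutrophils. It stood at 11.1, 15.7 and 12.6 FPKM in tumour neutrophils, against 1.05, 1.12 and 1.24 FPKM in WT neutrophils. The means were 13.1 ± 2.36 and 1.14 ± 0.0972 FPKM (SD, n = 3 each), with a log2 difference of 2.71.

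H1f0 (chr15:79028450-79030504, plus strand) stood at 44.1, 44.8 and 38.4 FPKM in tumour neutrophils, against 3.52, 3.5 and 4.85 FPKM in WT neutrophils. The means were 42.4 ± 3.49 and 3.95 ± 0.775 FPKM (SD, n = 3 each), with a log2 difference of 3.14. An antisense gene, Gm49544, overlaps its exon and was not analysed here, and the library kit does not mark strand. The gene next to it, Gcat, which encodes a glycine-handling mitochondrial enzyme and starts 370 bases away, was at 0.249 FPKM in tumour and 0.11 FPKM in WT neutrophils.

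By size of rise among the 9349 genes tested in neutrophils, Ms4a6d ranked 6, Rcan1 7, B4galt1 17, H1f0 23 and Med12l 36. All 5 passed the filter on low values, Ms4a6d only through the tumour libraries. In all 5 genes every tumour neutrophil library lay above every WT one, which held for 38.3% of the genes tested; 33.3% were called higher and 25.8% lower. Since this contrast chose the genes, nothing is read from that count. The median gene lay 0.11 higher in tumour neutrophils, a small shift beside these differences. The 3 tumour libraries did not keep a common order: Rcan1 was highest in Tum6, Med12l and H1f0 in Tum7, and B4galt1 and Ms4a6d in Tum8.

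**Figure D1:**
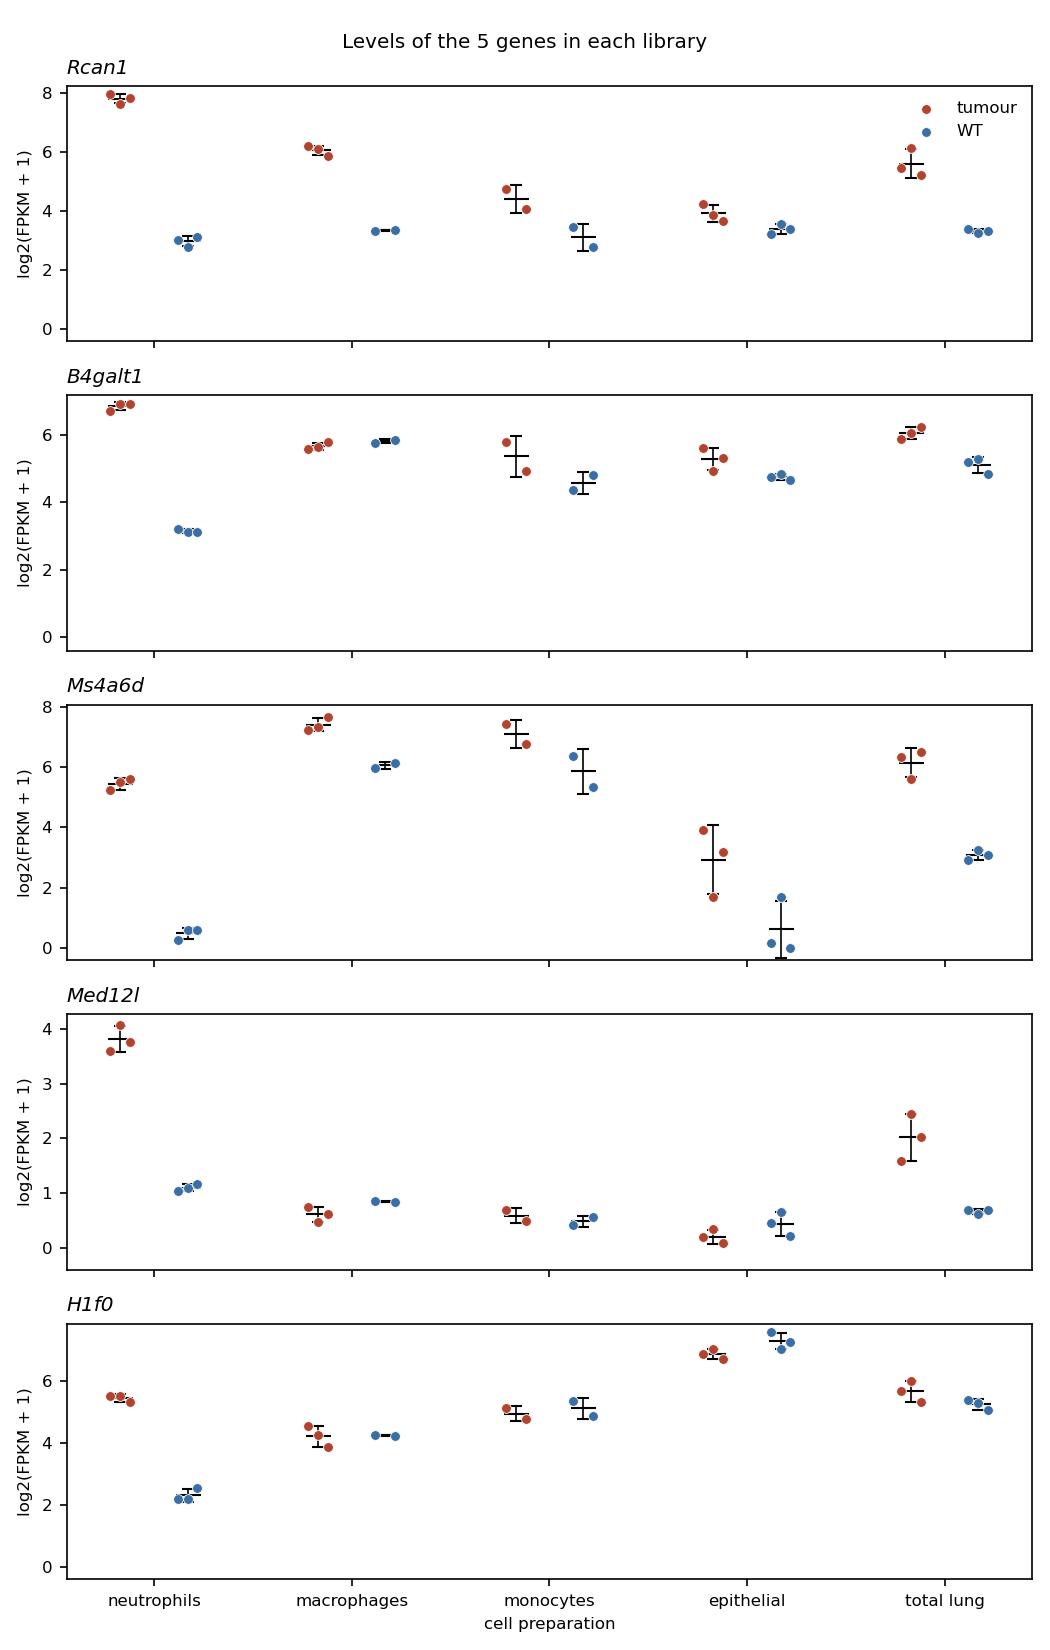
Level of each gene in each of the 27 libraries, as log2(FPKM + 1), for tumour (red, left) and WT (blue, right) in the 5 preparations; bars give the mean and SD of each group. WT neutrophils are the lowest group for Rcan1, B4galt1, Ms4a6d and H1f0, and Med12l is above 1 FPKM on average only in tumour and WT neutrophils and tumour total lung.

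Other cell types in the neutrophil gate were measured beside these values. Of 17 monocyte and interstitial macrophage markers in the table, 13 were tested in neutrophils. In tumour 9 were called higher and 1, Cd14, lower, beside 33.3% and 25.8% of all genes tested. Ms4a7, 1 of these 9, passed the filter only through the tumour libraries. The summed level of the 17 markers was 3011 to 4206 FPKM in tumour and 4086 to 5136 FPKM in WT neutrophils. Most of it was Cd14, the lipopolysaccharide co-receptor, which neutrophils also express. C1qa, a complement subunit made by macrophages, was at 30.9, 18.5 and 22.5 FPKM in Tum6, Tum7 and Tum8, against 1.56, 2.98 and 7.54 FPKM in WT5, WT6 and WT7. Ms4a6d was lowest in Tum6, where C1qa was highest.

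Epithelial genes moved in both directions. The surfactant gene Sftpc was at 36.5, 9.63 and 14.7 FPKM in tumour neutrophils, against 699, 441 and 1764 FPKM in WT neutrophils, and all 8 alveolar type II markers in the table were lower in tumour. Krt18, a keratin of simple epithelium, was at 16.6 to 19.8 FPKM in tumour and 2.49 to 3.13 FPKM in WT neutrophils, against 321 to 571 FPKM in tumour epithelial cells. All 11 endothelial, all 7 B cell and 6 of 6 tested fibroblast markers were lower in tumour neutrophils, beside 25.8% of all genes tested. The part of these cells in the differences of the 5 genes was not tested.

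Macrophages were the first preparation not used to choose the genes. Rcan1 and Ms4a6d were higher in tumour macrophages, B4galt1 and H1f0 did not pass, and Med12l was too low to test. Thus 2 of the 4 members tested were called higher, against 20.3% of all genes tested (17.7% were called lower). Rcan1 stood at 72.4, 66.9 and 57.8 FPKM in tumour macrophages, against 9.1 and 9.33 FPKM in WT macrophages. Its change was 2.70 (SE 0.12, limma adjusted p = 1.71e-05), with no overlap. Ms4a6d, a gene that macrophages of both gates carried, stood at 148, 161 and 201 FPKM in tumour macrophages, against 61.5 and 69.6 FPKM in WT macrophages. Its change was 1.35 (SE 0.15, limma adjusted p = 7e-04), again with no overlap; every tumour library lay above every WT library for 32.4% of all genes tested. B4galt1 stood at 46.9, 49.1 and 54.2 FPKM in tumour macrophages, against 54 and 57.2 FPKM in WT macrophages. These ranges overlapped, with a change of -0.15 (SE 0.10, limma adjusted p = 0.289). H1f0 stood at 22.2, 17.9 and 13.6 FPKM in tumour macrophages, against 18.1 and 17.8 FPKM in WT macrophages, and its change of -0.03 (SE 0.19, limma adjusted p = 0.911) was within the spread. Med12l was at 0.675, 0.39 and 0.527 FPKM in tumour macrophages, against 0.796 and 0.789 FPKM in WT macrophages, all under the filter. The gates themselves differed: 13 of 17 monocyte and interstitial macrophage markers were higher in tumour macrophages and 2 lower, while 7 of 8 alveolar macrophage markers were lower. Some of the 13, among them C1qb and C1qc, met the filter only with the tumour libraries, so the 13 are not read against the share of all genes. Of the 2 lower monocyte and interstitial macrophage markers, Apoe, an apolipoprotein gene, was listed at 0 in the 3 tumour macrophage libraries but at 2323 to 4087 FPKM in tumour total lung, so that 0 can be a failed estimate. Neutrophil markers moved too: 6 of 12 tested were higher in tumour macrophages and 2 lower. They summed to 892, 419 and 559 FPKM in Tum1, Tum2 and Tum3, against 322 and 317 FPKM in WT macrophages. Rcan1 and the neutrophil sum were both highest in Tum1, but Tum2, with the lowest sum, had more Rcan1 than Tum3. The part of neutrophil RNA in the Rcan1 change was not tested.

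In monocytes none of the 4 members tested was called, and no gene of 10366 was called by limma (0%), although 744 were higher and 815 lower at an unadjusted p under 0.05. Rcan1 stood at 25.9 and 16 FPKM in tumour monocytes, against 9.89 and 5.94 FPKM in WT monocytes, a change of 1.30 (SE 0.33, limma adjusted p = 0.2). Ms4a6d stood at 172 and 109 FPKM in tumour monocytes, against 82.3 and 39.1 FPKM in WT monocytes, a change of 1.25 (SE 0.40, limma adjusted p = 0.252). B4galt1 stood at 54.8 and 29.8 FPKM in tumour monocytes, against 19.5 and 26.9 FPKM in WT monocytes, a change of 0.79 (SE 0.33, limma adjusted p = 0.348). For these 3 genes each tumour library lay above each WT library, as for 23.6% of all genes tested. H1f0 stood at 33.8 and 26.1 FPKM in tumour monocytes, against 39.7 and 28.1 FPKM in WT monocytes, and the ranges overlapped. In a fit of all 10 groups together, Rcan1 and B4galt1 were called in monocytes, with limma adjusted p = 0.00279 and 0.0249. T and NK cell markers summed to 453 to 908 FPKM in tumour and 480 to 1055 FPKM in WT monocytes. Endothelial markers summed to 103 to 294 and 652 to 1003 FPKM in the same groups. Neutrophil markers summed to 713 and 529 FPKM in tumour, against 312 and 3190 FPKM in WT monocytes. Sftpc was at 7.76 and 15.8 FPKM, against 1781 and 229 FPKM. The part of these cells in the monocyte values was not tested.

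In epithelial cells 1 of the 4 members tested, Ms4a6d, was called higher, and 14.9% of all genes tested were called higher and 8.89% lower. Ms4a6d reached 1 FPKM in a single WT library, so it met the filter only with the tumour libraries and its call is not read against that share; with no filter it was not called (limma adjusted p = 0.0782). It stood at 14.2, 2.21 and 8.08 FPKM in tumour epithelial cells, against 0.128, 2.27 and 0 FPKM in WT epithelial cells. The ranges overlapped, and the change of 2.30 (SE 0.66, limma adjusted p = 0.0451) lost its call in 10 of 15 alternative settings, among them leaving out Tum9, Tum11, WT8 or WT10 (limma adjusted p = 0.119 to 0.146). Among the tumour libraries it followed Itgax, the CD11c gene against which the gate selects, at 27.8, 6.25 and 15.6 FPKM, and the alveolar macrophage receptor gene Marco, at 39.2, 5.95 and 19.6 FPKM. In WT libraries Itgax was at 1.72, 5.69 and 2.27 FPKM and Marco at 0.168, 1.6 and 0.0936 FPKM, both highest in the library with the highest Ms4a6d. Of 8 alveolar macrophage markers tested in epithelial cells 5 were higher in tumour. Marco, among these 5, reached 1 FPKM in a single WT library, so it met the filter only with the tumour libraries. The 8 markers summed to 41.9 to 165 FPKM in tumour and 26.2 to 37.99 FPKM in WT. Their part in the Ms4a6d result was not tested.

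Rcan1 stood at 17.7, 13.7 and 11.6 FPKM in tumour epithelial cells, against 8.31, 10.8 and 9.44 FPKM in WT epithelial cells, a change of 0.53 (SE 0.19, limma adjusted p = 0.0762). B4galt1 stood at 47.7, 29.8 and 39.0 FPKM in tumour epithelial cells, against 26.0, 27.6 and 24.6 FPKM in WT epithelial cells, a change of 0.54 (SE 0.18, limma adjusted p = 0.067). The groups did not overlap for either gene, with tumour above WT, as for 25.5% of all genes tested, but neither passed; without Tum10, B4galt1 did (0.71, limma adjusted p = 0.0103). H1f0 had its highest levels of the series here, at 116, 128 and 102 FPKM in tumour epithelial cells, against 188, 130 and 151 FPKM in WT epithelial cells. The highest tumour library, at 128 FPKM, lay just below the lowest WT library, at 130 FPKM. How many of all genes lay wholly below WT in this way was not counted. The change of -0.43 (SE 0.17, limma adjusted p = 0.1) did not pass. Med12l was under 0.6 FPKM in each epithelial library.

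In total lung 4 members reached 1 FPKM in the WT as well as the tumour libraries, and 3 of these were called higher, against 22.1% of all genes tested (20.4% were called lower). Rcan1 stood at 42.5, 69.8 and 36.3 FPKM in tumour lung, against 9.42, 8.65 and 8.95 FPKM in WT lung, a change of 2.28 (SE 0.22, limma adjusted p = 0.000401). Ms4a6d stood at 79.1, 48.1 and 89.9 FPKM in tumour lung, against 6.53, 8.58 and 7.58 FPKM in WT lung, a change of 3.06 (SE 0.23, limma adjusted p = 0.000169). B4galt1 stood at 57.5, 66.4 and 74.2 FPKM in tumour lung, against 35.8, 38 and 27.7 FPKM in WT lung, a change of 0.95 (SE 0.15, limma adjusted p = 0.00237). For these 3 genes, as for 28.2% of all genes tested, every tumour library lay above every WT library. Med12l stood at 1.99, 4.43 and 3.07 FPKM in tumour lung, against 0.611, 0.532 and 0.617 FPKM in WT lung. The groups did not overlap and the difference was 1.35, but Med12l passed the filter only through the tumour libraries, so it is not counted among the calls. H1f0 stood at 49.97, 62.5 and 38.8 FPKM in tumour lung, against 40.2, 38.2 and 32.1 FPKM in WT lung. These ranges overlapped, and the change of 0.42 (SE 0.18, limma adjusted p = 0.0918) passed only without Tum14 (0.59, limma adjusted p = 0.0256).

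In unsorted lung, more cells of a type and more RNA per cell cannot be told apart. The neutrophil markers summed to 4600, 9137 and 11160 FPKM in tumour lung, against 2308, 3250 and 2214 FPKM in WT lung, and 11 of 15 tested were higher and 1 lower. The monocyte and interstitial macrophage markers summed to 6782, 4951 and 5918 FPKM in tumour lung, against 781, 928 and 713 FPKM in WT lung, and 15 of 17 were higher. Rcan1, Med12l and H1f0 were highest in Tum13 and Ms4a6d and B4galt1 in Tum14, while the neutrophil sum was highest in Tum14 and the macrophage sum in Tum12. The part of cell numbers in these changes was not tested.

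**Figure D2:**
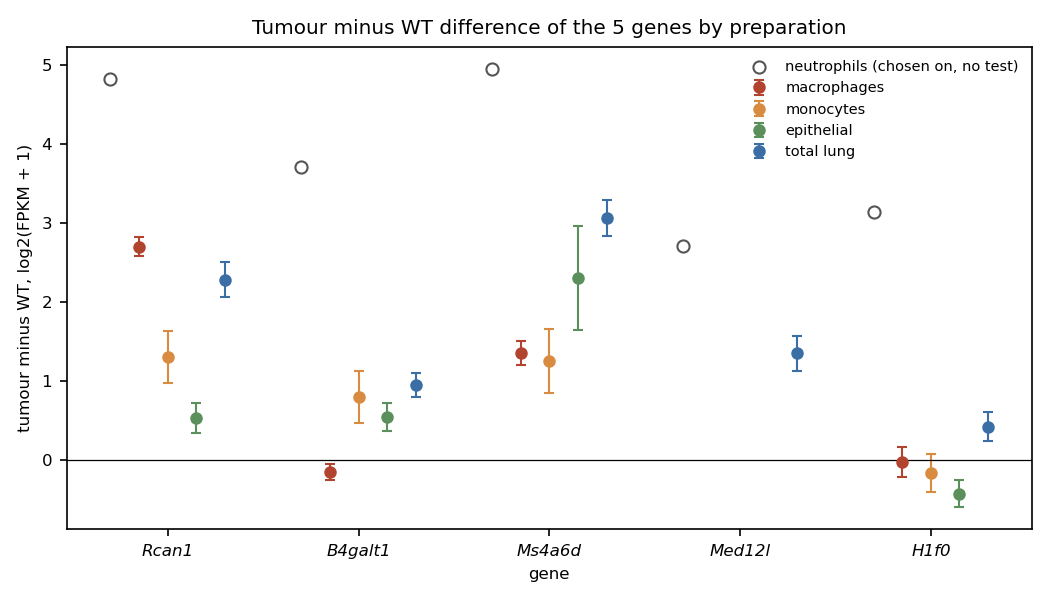
Tumour minus WT difference of log2(FPKM + 1) for each gene in each preparation; filled points are tested changes with their standard error, and open points are the neutrophil differences that chose the genes, shown without a test. Rcan1 and Ms4a6d lie above 0 in every preparation, B4galt1 and H1f0 lie near 0 in macrophages, and Med12l passed the filter only in total lung, through its tumour libraries.

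The size of the tumour effect differed between macrophages and other preparations for 2 members. For Rcan1 the change in macrophages exceeded that in epithelial cells by 2.17 (SE 0.23, limma interaction adjusted p = 0.00011), where 13.9% of all genes differed in that direction. It exceeded the change in monocytes by 1.41 (SE 0.35, limma interaction adjusted p = 0.0283), with 8.37% of all genes called that way. The difference from monocytes lost its call in 7 of 17 alternatives, among them leaving out Tum1, Tum2, WT1, WT2, Tum5 or WT3 (limma adjusted p = 0.0591 to 0.0985). For B4galt1 the change in macrophages was lower than in epithelial cells, by -0.69 (SE 0.22, limma interaction adjusted p = 0.0391), with 17.4% of all genes called that way, and 10 of 20 alternatives lost it, among them leaving out Tum1, Tum2, WT1, WT2, Tum9, Tum11, WT8 or WT10 (limma adjusted p = 0.0688 to 0.131). Against monocytes the B4galt1 difference was -0.94 (SE 0.35, limma interaction adjusted p = 0.104). The interactions share the macrophage libraries, including the change of gate. Those of Ms4a6d and H1f0 did not pass in either pair.

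Over the 10 groups the 5 genes had different orders of level. For Rcan1, tumour neutrophils stood 3.4 times above the next group, tumour macrophages, which overlapped tumour total lung. Tumour monocytes and tumour epithelial cells followed and overlapped each other, and the 5 WT groups came last, at means of 6.94 to 9.51 FPKM, each overlapping its neighbour. For B4galt1, tumour neutrophils stood 1.75 times above tumour total lung, and WT neutrophils 2.94 times below the next group, WT monocytes. The groups between ran from 23.2 to 66.1 FPKM, with WT macrophages above tumour macrophages and their ranges overlapping.

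Ms4a6d was highest in tumour macrophages (170 ± 27.6 FPKM, n = 3) and tumour monocytes (140 ± 44.7 FPKM, n = 2), whose ranges overlapped. Tumour total lung, WT macrophages and WT monocytes came next, each overlapping its neighbour. Tumour neutrophils came after them, below WT monocytes by mean, with ranges that overlapped. Tumour epithelial cells and WT total lung, at 8.15 and 7.56 FPKM, overlapped, and WT epithelial cells and WT neutrophils, both under 1 FPKM, overlapped at the bottom.

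Med12l had a different shape, with tumour neutrophils 4.15 times above tumour total lung, then WT neutrophils, and every other group at or under a mean of 0.793 FPKM. H1f0 was led by WT epithelial cells (156 ± 29.2 FPKM, n = 3) and then tumour epithelial cells (115 ± 13.1 FPKM, n = 3). Tumour neutrophils came between tumour total lung above them and WT total lung below them, and overlapped both. WT neutrophils were last, 4.52 times below tumour macrophages. For H1f0 the tumour neutrophils thus lay inside the range of the other groups, and the WT neutrophils outside it.

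The members were compared with each other by Pearson's r of group means of log2(FPKM + 1), as a description over 10 groups that share libraries and the choice of the genes. The highest values were 0.78 for Rcan1 with Med12l and 0.77 for Rcan1 with B4galt1. The lowest were -0.10 for Ms4a6d with H1f0 and -0.07 for Med12l with H1f0. Without the neutrophil groups, over 8 means, Rcan1 with B4galt1 was 0.68, Rcan1 with Med12l 0.50, and Ms4a6d with H1f0 -0.84.

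The genes most like Rcan1 by the same measure, among 10169 genes, were Adamdec1 (r = 0.951), which encodes a secreted metalloproteinase, Rffl (0.892), a ubiquitin ligase, and Il23a (0.88), the cytokine subunit p19. Il23a averaged 454 ± 47.2 FPKM in tumour and 10.1 ± 1.83 FPKM in WT neutrophils (SD, n = 3 each). Adamdec1 averaged 22.1 ± 8.53 and 0.336 ± 0.139 FPKM in the same groups. Nearest to B4galt1 were Tomm6 (0.897), of the mitochondrial import pore, Hnrnpul1 (0.888), an RNA-binding protein, and Nsf (0.882), the ATPase that recycles membrane fusion complexes. Nearest to Ms4a6d were Tcirg1 (0.966), of the vacuolar proton pump, Zmiz1 (0.964), a transcriptional coactivator, and P2ry6 (0.964), a nucleotide receptor. Nearest to Med12l were Cdc34 (0.958), a ubiquitin-conjugating enzyme, Hist1h1c (0.923), a linker histone, and Cry1 (0.922), a circadian repressor. Nearest to H1f0 were Zranb2 (0.968), a splicing factor, Pptc7 (0.952), a mitochondrial phosphatase, and Crebzf (0.949), a bZIP protein. Over 27 libraries instead of 10 means, 2 of the 3 nearest genes were shared for each member except Med12l, with 1. With 0.1 FPKM added in place of 1 FPKM, all 3 were shared for each member except Ms4a6d, with 1.

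Around Rcan1, genes of calcineurin, NFAT and their regulators went both ways in neutrophils. Of 16 tested 6 were higher and 3 lower in tumour, beside 33.3% and 25.8% of all genes. Nfatc2, 1 of the 6, passed the filter only through the tumour libraries. The median change of the list was 0.09 beside 0.11 over all genes. Nfatc1, an NFAT factor, was at 40.9 ± 2.69 FPKM in tumour and 25.0 ± 1.12 FPKM in WT neutrophils (change 0.69, SE 0.10, limma adjusted p = 0.000664). The catalytic subunit gene Ppp3ca was at 37.8 ± 1.1 and 43.0 ± 1.82 FPKM and did not pass (limma adjusted p = 0.144), and the calcium sensor Stim2 was lower (change -0.83, limma adjusted p = 0.000596). Rcan3, a relative of Rcan1, was at 0.464 and 0.26 FPKM and was not tested.

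Of 11 tested genes known to be induced through NFAT, many of which other immediate-early signals also induce, 8 were higher in tumour neutrophils and 1 lower, with a median of 1.42. Tnf, the inflammatory cytokine gene, stood at 2602, 1776 and 2002 FPKM in tumour neutrophils, against 106, 111 and 128 FPKM in WT neutrophils (change 4.18, SE 0.16, limma adjusted p = 7.93e-07). Egr2, an early growth response factor, changed by 2.53 (limma adjusted p = 2.34e-05) and its relative Egr3 by 1.78 (limma adjusted p = 0.00192). Irf4, an interferon regulatory factor of lymphocytes and macrophages, changed by -2.02 (limma adjusted p = 0.00109). In macrophages 8 of 13 were higher and 1 lower, in total lung 7 of 16 higher and 3 lower, in epithelial cells 3 of 13 higher and 1 lower, and in monocytes none was called. Over all genes tested, 33.3% were called higher in neutrophils, 20.3% in macrophages, 22.1% in total lung and 14.9% in epithelial cells.

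Around B4galt1, other galactosyltransferases and genes of galactose supply went both ways in neutrophils. Of 17 tested 7 were higher and 4 lower, beside 33.3% and 25.8% of all genes, with a median of -0.02; after quantile normalization the counts were 4 and 4. B4galt5, a lactosylceramide synthase, stood at 15.3, 5.87 and 10.6 FPKM in tumour neutrophils, against 40.0, 57.2 and 39.4 FPKM in WT neutrophils (change -2.07, SE 0.29, limma adjusted p = 0.000424). It was thus lower in the libraries where B4galt1 was higher. B4galt3 changed by 1.11 (limma adjusted p = 0.000188) and B4galt6 by 0.75 (limma adjusted p = 0.000976). In macrophages, where B4galt1 did not pass, B4galt5 changed by 1.07 (limma adjusted p = 0.000354) and B4galt6 by 3.41 (limma adjusted p = 1.12e-05). Of 15 listed sialyltransferases, fucosyltransferases and N-acetylglucosaminyltransferases tested, 7 were higher and 6 lower in tumour neutrophils, beside 33.3% and 25.8% of all genes. Gcnt1, a branching enzyme of O-glycans, was higher (1.06, limma adjusted p = 0.000328) and the sialyltransferase St3gal6 lower (-1.66, limma adjusted p = 0.000149).

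Around Ms4a6d, 11 of 20 listed Ms4a genes and relatives were in the table and 5 were tested in neutrophils. Ms4a7, a macrophage family member, was higher at 2.5 ± 0.644 FPKM in tumour against 0.525 ± 0.224 FPKM in WT neutrophils (change 1.19, limma adjusted p = 0.000632), having passed the filter only through the tumour libraries, and Ms4a8a was also higher. Ms4a1, the B cell gene for CD20, was lower (change -2.82, limma adjusted p = 0.00126). Ms4a2, the nearest neighbour of Ms4a6d in the table, was at 0.019 FPKM in tumour and 0.0348 FPKM in WT neutrophils.

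Set against macrophages, Ms4a6d in tumour neutrophils averaged 25% of its mean in tumour macrophages and 30.4% of that in tumour monocytes. Csf1r, the receptor for macrophage colony-stimulating factor, gave 27.6% and 28.1%. C1qa, C1qb and C1qc gave 1.58% to 1.7% of the macrophage and 6.3% to 7.38% of the monocyte means, and Ms4a7 1.43% and 5.42%. Csf1r, unlike Ms4a6d, was also high in WT neutrophils, at 55.3, 62.4 and 65.3 FPKM, against 96.8, 68.5 and 75.2 FPKM in tumour neutrophils.

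**Figure D3:**
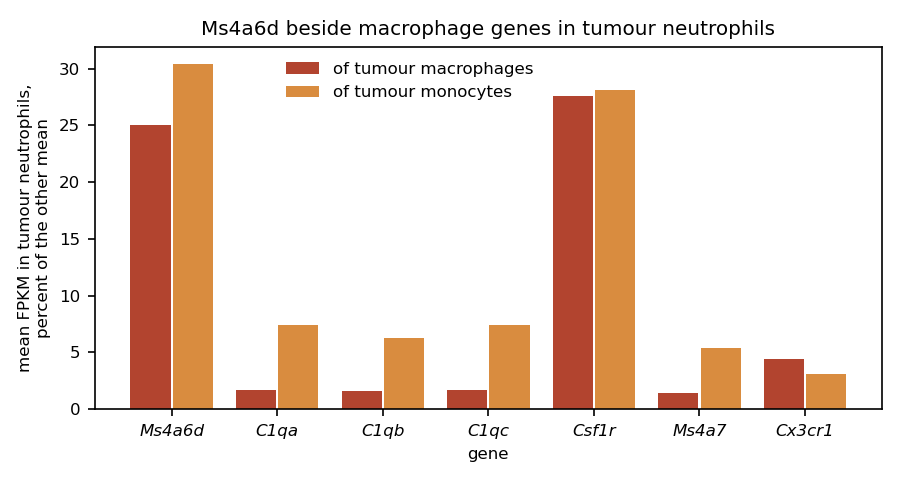
Mean FPKM in tumour neutrophils as a percentage of the mean in tumour macrophages (red) and tumour monocytes (orange), for Ms4a6d and macrophage genes. Ms4a6d and Csf1r lie at 25% to 30.4%, and the C1q genes, Ms4a7 and Cx3cr1 at or under 7.38%.

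Around Med12l, 6 genes of the Mediator kinase module were tested in neutrophils. None was higher in tumour and 1, Med13, which joins the module to Mediator, was lower, at 14.6 ± 1.9 FPKM in tumour and 18.8 ± 1.17 FPKM in WT neutrophils (change -0.35, limma adjusted p = 0.0361). No gene of the module was called without Tum6, Tum8, WT5 or WT6. Med12, the paralogue of Med12l, was at 18.6, 20.7 and 16.5 FPKM in tumour neutrophils, against 17.6, 17.1 and 15.4 FPKM in WT neutrophils, and did not pass (limma adjusted p = 0.314). Med12l thus stood at 13.1 FPKM beside 18.6 FPKM for Med12 in tumour neutrophils, and at 1.14 beside 16.7 FPKM in WT neutrophils. In macrophages Med12 was higher in tumour (change 0.62, limma adjusted p = 0.00314) while Med12l was not testable. Of the 24 other Mediator subunits tested in neutrophils 11 were higher and 2 lower, beside 33.3% and 25.8% of all genes, with a median of 0.39 beside 0.11 over all genes, Med29 highest (1.18, limma adjusted p = 8.14e-05) and Med31 lowest (-1.49, limma adjusted p = 0.000134).

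Med12l is a long gene that holds several receptor genes on the opposite strand, and the library kit does not mark strand. Gpr171, P2ry14, P2ry13 and P2ry12 lie inside it and Igsf10 overlaps its end; exons of P2ry12 and Igsf10 overlap exons of Med12l, so reads there cannot be told apart. These 5 genes were tested in neutrophils, and all 5 were higher in tumour, beside 33.3% of all genes tested. Igsf10 passed the filter only through the tumour libraries, so its call is not read against that share. Gpr171, a G protein-coupled receptor gene, stood at 38.3, 40.1 and 57.9 FPKM in tumour neutrophils, against 1.29, 2.01 and 2.43 FPKM in WT neutrophils (change 3.99, limma adjusted p = 3.69e-06). P2ry14, a receptor for UDP-glucose, stood at 13.5, 9.82 and 17.0 FPKM in tumour neutrophils, against 1.48, 1.49 and 1.25 FPKM in WT neutrophils (change 2.56, limma adjusted p = 1.84e-05). The ADP receptor genes P2ry13 and P2ry12 changed by 1.46 and 1.39 (limma adjusted p = 2.66e-05 and 0.00112). Among the tumour libraries Med12l was highest in Tum7, as were P2ry12, P2ry13 and Igsf10, whereas P2ry14 was lowest there.

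These receptor genes did not always go with Med12l. In macrophages P2ry14 averaged 20.4 ± 5.35 FPKM in tumour and 60.6 ± 1.74 FPKM in WT, P2ry13 8.49 ± 3.44 and 27.2 ± 1.64 FPKM, and P2ry12 6.5 ± 1.18 and 7.17 ± 0.837 FPKM, with Med12l under 0.8 FPKM in each of the 5 libraries. In total lung P2ry12 and P2ry13 were higher in tumour. Each reached 1 FPKM in a single WT library, so both met the filter only with the tumour libraries. Igsf10 was lower in tumour, at 0.876 ± 0.373 against 3.98 ± 1.57 FPKM (n = 3 each), and met the filter only through the WT libraries. Med12l lay higher in every tumour total lung library than in every WT one.

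**Figure D4:**
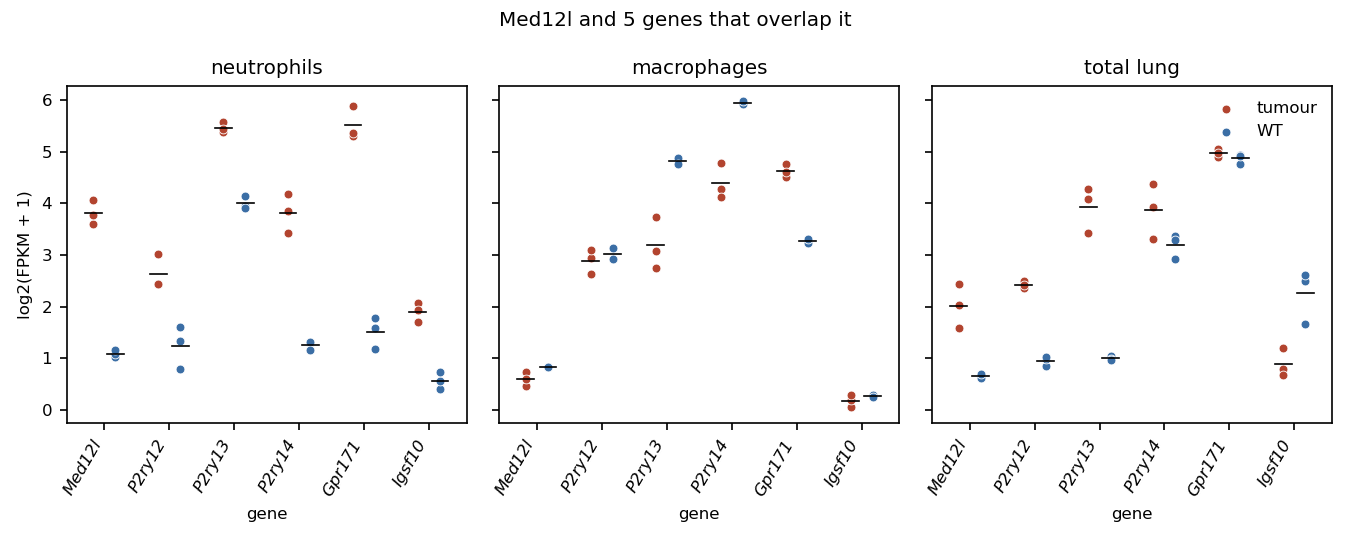
Levels of Med12l and 5 genes that overlap it, as log2(FPKM + 1) in each library, for tumour (red, left) and WT (blue, right) in neutrophils, macrophages and total lung; bars are means. In neutrophils Med12l and the tested receptor genes are higher in tumour, and in macrophages P2ry12, P2ry13 and P2ry14 are present with Med12l under 0.8 FPKM.

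Around H1f0, 4 of the 9 other linker histone genes in the table passed the filter in neutrophils, and these 4 were called higher. Hist1h1d and Hist1h1b were under 1 FPKM in each WT library and passed only through the tumour libraries. Their calls are therefore not read against the share of all genes. Hist1h1c and Hist1h1e reached 1 FPKM in the WT libraries too, and were called higher beside 33.3% of all genes tested. Hist1h1c stood at 343, 345 and 305 FPKM in tumour neutrophils, against 160, 196 and 160 FPKM in WT neutrophils (change 0.94, SE 0.13, limma adjusted p = 0.00034). Hist1h1d averaged 6.33 ± 0.679 FPKM in tumour and 0.447 ± 0.215 FPKM in WT neutrophils (change 2.35, limma adjusted p = 1.09e-05), and Hist1h1e and Hist1h1b were also higher, at lower levels. Most messages of these replication-linked histones lack the poly(A) tail that H1f0 carries, which limits a comparison of their levels with H1f0. At 42.4 FPKM, H1f0 stood below Hist1h1c and above the other 3 in tumour neutrophils. In macrophages, where H1f0 did not pass, Hist1h1c, Hist1h1d and Hist1h1e were lower in tumour and H1fx, which passed only through the tumour libraries, higher; without WT1 or WT2 only 1 of these calls was made.

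**Figure D5:**
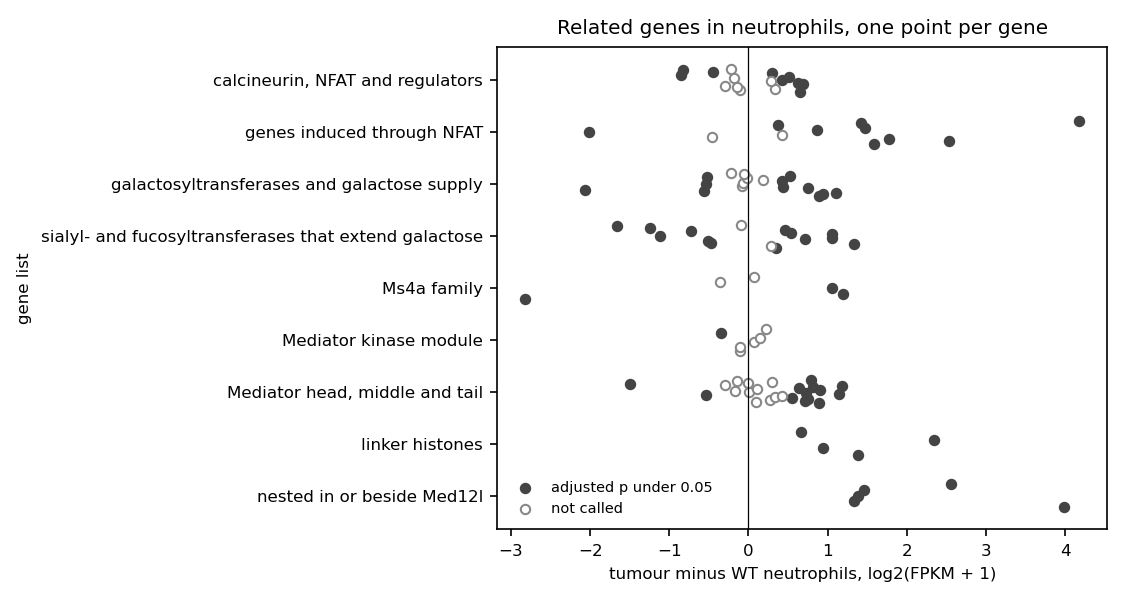
Tumour minus WT change in neutrophils for the genes of each related list, as log2(FPKM + 1); each point is a gene, filled where the limma adjusted p was under 0.05. The 4 linker histones and 5 genes overlapping Med12l that passed the filter lie above 0. Of these, Hist1h1b, Hist1h1d and Igsf10 passed only through the tumour libraries. The calcineurin, galactosyltransferase and Mediator kinase lists lie on both sides of 0.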

How the data were processed

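The submitters' processing notes name CASAVA 1.8.2, TopHat2, Cufflinks and Cuffdiff, and the mouse genome mm10 (GRCm38), for the FPKM that the authors deposited; the role and settings of each are not given in the sources used here. The deposited table holds FPKM for 16024 genes, and each of its 27 columns was matched to a library by title. Libraries were made with a TruSeq kit that does not mark strand, per the labels' protocols.

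The 5 genes and all gene lists were chosen with earlier results of these data known. Values were analysed as log2(FPKM + 1), with no further scaling. Within each preparation, tumour was set against WT with limma 3.58.1 (R 4.3.3; trend on mean level, two-sided, Benjamini-Hochberg, threshold 0.05), for genes that reached 1 FPKM in 2 or more libraries of the comparison. Interaction terms compared macrophages with monocytes and with epithelial cells. Libraries were grouped by their cell type and source labels. Simulated data were used to test the scripts.

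Of 147 entries in 9 lists of related genes, 132 were found in the table, and of 139 entries in 12 marker lists, 122. Genes named were the members, core genes and the largest called changes of each list with a mean of at least 5 FPKM, the 3 genes most like each member, neighbours and overlapping genes, and leading markers; not each is written out. Hist1h1b, Ms4a8a, Marco, Csf1r, Cx3cr1, C1qb, C1qc, Il1r2, Hdc and Apoe fall outside this rule and were added after their values were seen. Positions came from GENCODE M21 (GRCm38), and promoters of 4 of the 5 members from RefSeq (GRCm38.p6). Alternatives were other pseudocounts, filters and scalings, a fit of all 10 groups, robust empirical Bayes, a replicate block and each library left out in turn. Figures were drawn with matplotlib 3.10.9 in Python 3.11.15.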

Additional observations from a re-analysis of the deposited data

Results flagged for a closer look

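The tumour effect on Rcan1 was larger in macrophages than in epithelial cells, by 2.17 on the log2 scale (SE 0.23, limma interaction adjusted p = 0.00011). Every tumour library lay above every WT library in both preparations, and the call was kept in all 20 alternatives.

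The tumour effect on Rcan1 was also larger in macrophages than in monocytes, by 1.41 (SE 0.35, limma interaction adjusted p = 0.0283), a call kept in 10 of 17 alternatives. Over the 17, the limma adjusted p ran from 0.00627 to 0.0985.

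The tumour effect on B4galt1 was smaller in macrophages than in epithelial cells, with a difference of -0.69 (SE 0.22, limma interaction adjusted p = 0.0391). B4galt1 lay higher in all 3 tumour epithelial libraries than in WT ones, while the macrophage groups overlapped, and the call was kept in 10 of 20 alternatives. Over the 20, the limma adjusted p ran from 0.00261 to 0.131. In macrophages the gates differ in CD11b, so gate and tumour cannot be told apart in any of these differences.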

How the results depend on the processing

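In neutrophils the differences of the 5 genes stayed positive in each setting run; with pseudocounts of 0.1 and 5 they were 4.99 and 4.26 for Rcan1, 3.85 and 3.22 for B4galt1, 6.43 and 3.13 for Ms4a6d, 3.41 and 1.55 for Med12l, and 3.40 and 2.41 for H1f0. Calls of Rcan1 and Ms4a6d in macrophages, and of Rcan1, B4galt1 and Ms4a6d in total lung, were kept in every alternative that tested them. Few libraries per group, and 2 in WT macrophages and both monocyte groups, limit all tests; depth is known only as a ratio, so values under 1 FPKM are the least certain. Where a library left out leaves 1 in its group, that library is assumed to vary like the others. The causes of the following changes were not tested.

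Member calls in epithelial cells, 1 as reported, were 0 with pseudocounts of 0.1 and 5, a filter of 5 FPKM or none, quantile normalization and the replicate block, 3 with upper-quartile scaling and the fit of all 10 groups, and 0 to 2 with a library left out. In monocytes the fit of all 10 groups called 2 members and 1152 genes, and leaving out a library called 0 members and 0 to 310 genes, the highest without Tum5. For macrophages minus monocytes 1 member call became 0 without the filter, 2 in the fit of all 10 groups and 0 to 1 with a library left out. For macrophages minus epithelial cells 2 became 1 in that fit and under the replicate block, and 1 to 2 with a library left out. The fit of all 10 groups called 5343 genes in epithelial cells, against 2816. With a library left out, gene counts ran from 1778 to 4520 in macrophages (3838 as reported; 1778 and 1845 without WT1 and WT2), from 490 to 4215 in epithelial cells, from 746 to 1758 for macrophages minus monocytes (1664) and from 2257 to 4906 for macrophages minus epithelial cells (3802).

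Library numbers are serial names, so same-numbered libraries were not taken as pairs. Their deviations from the group means correlated at -0.17 to 0.08. With 2 or 3 libraries in a group this cannot exclude pairing, and other pairings were not checked. The replicate block called 397 genes in epithelial cells, 2423 in total lung (4993 without it), 3564 in neutrophils (5524 without it) and 1907 for macrophages minus epithelial cells. Under it the calcineurin list had 4 calls in neutrophils in place of 9, and H1f0 in macrophages turned to 0.14. No paired analysis was possible in monocytes because the groups share a single number.

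Signs turned only for changes that were not called. These were H1f0 in macrophages (-0.19 to 0.14 with a library left out) and monocytes (-0.41 to 0.08), H1f0 (-0.11 to 0.38) and Ms4a6d (-0.43 to 0.63) for macrophages minus monocytes, which stood at -0.02 and -0.05 with upper-quartile scaling, and Ms4a6d for macrophages minus epithelial cells, 0.21 with a pseudocount of 5. Upper-quartile scaling moved the split of calls in epithelial cells to 2456 higher and 668 lower (1765 and 1051 as reported), for macrophages minus monocytes to 744 and 1060 (909 and 755) and for macrophages minus epithelial cells to 1210 and 2977 (1691 and 2111), with median shifts of 0.13, -0.11 and -0.20. Of 639 recomputed counts of list calls, 528 stayed within 1.5 times.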
